A study of Mus musculus with 13 samples.

Results

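The genes described here are the fatty acid oxidation enzymes of mitochondria and peroxisomes together with PPAR receptors and PPAR target genes, measured in the colon and ileum of tumour-bearing mice with and without vancomycin. The set is a list of 32 gene symbols, and a member was taken as the probe set that the platform annotation pairs with its symbol. Of the 32, 29 had a named probe set, 1 each, among 19572 named probe sets for 19505 genes. Ppard, Ucp2 and Etfb had none and are not analysed here.

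Expression was measured on 1-colour Affymetrix mouse arrays with RNA from washed, frozen colon and ileum. All mice were FVB females that bore a syngeneic mammary carcinoma expressing human HER2, so every group carried the tumour and no tumour-free group enters the comparisons. Vancomycin, which kills mainly Gram-positive bacteria, was given in drinking water at 200 mg/L from 4 weeks of age. Tissue was taken at 9 weeks, when tumours had grown to 150 mm3; the labels leave it unclear whether weeks of age or of treatment are meant. The groups were the vancomycin colon with 3 arrays, the no-antibiotic colon with 4, the vancomycin ileum with 3 and the no-antibiotic ileum with 3. The labels do not say whether arrays came from separate mice, and name no cage, so the p-values measure only the spread between these samples, which may be technical, and cage and treatment cannot be told apart.

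Fatty acids are burned in steps. Long chains are joined to coenzyme A, cross the inner mitochondrial membrane as carnitine esters, and are then shortened by rounds of dehydrogenation, hydration, a second dehydrogenation and thiolysis, while peroxisomes run a parallel chain on very long or unusual substrates. The PPAR nuclear receptors bind fatty acids and, paired with RXR, switch on many of these enzymes, PPAR alpha mainly in liver, heart and the small intestinal enterocyte and PPAR gamma in fat and in the colonic epithelium. Angptl4, a secreted inhibitor of lipoprotein lipase, is a PPAR target known in mice as a gene that the gut microbiota holds down in the small intestinal epithelium.

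PPARs bind pairs of the half-site AGGTCA, so the promoters of the members were read for it in RefSeq sequence (GRCm38.p6), in the 250 bases before each annotated transcript start and on both strands. Of the 29 measured members 25 had an entry, and Angptl4, Acaa2, Decr1 and Hsd17b4 had none. The half-site stood in 7 of the 25, in Pparg, Creb3l3, Plin2, Cpt1a, Acadm, Acadvl and Acot12, while 15.8% of all 27025 genes with a window held it. The full direct repeat with 1 base between the half-sites, AGGTCANAGGTCA, stood in 0 of the 25, and in 0.0407% of all genes. The stretches around the 8 half-sites are shown because they are the letters in these windows that match the receptor's motif. Each is written 5′ to 3′ on the strand of its gene, with the half-site in capitals as AGGTCA or as its reverse complement.
Pparg, chr6:115361104-115361133, plus strand: agccgccgcctcAGGTCAgagtcgccccgg
Pparg, chr6:115362328-115362348, plus strand: agggacgcgaggAGGTCAaga
Creb3l3, chr10:81092776-81092805, minus strand: taagtaggggagAGGTCAcacagacccgac
Acadvl, chr11:70015498-70015527, minus strand: atggatcaccctAGGTCAggtagaatacag
Plin2, chr4:86670260-86670289, minus strand: tttcaggaccccTGACCTaagtcagacagc
Cpt1a, chr19:3323195-3323224, plus strand: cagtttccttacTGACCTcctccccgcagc
Acadm, chr3:153944875-153944893, minus strand: gTGACCTtcgggctccggt
Acot12, chr13:91741399-91741428, plus strand: ctcgtaggacccTGACCTctcacctcctaa
Among these 7 holders Pparg was higher in the colon than in the ileum, Creb3l3 and Acadm were lower, and Acot12 was lower in the no-antibiotic comparison. Plin2, Cpt1a and Acadvl passed in neither treatment. Of all 29 members 13 passed between the tissues without antibiotic and 15 under vancomycin, where 20.5% and 15.1% of all probe sets passed. A tie between half-site and call was not tested. A match of letters is not a bound site. The gene pair Hadha and Hadhb, which encode both subunits of the mitochondrial trifunctional protein, starts 273 bases apart on chromosome 5 and is transcribed outwards in both directions.

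The tissue labels were borne out by markers. Of 5 measured colon markers 4 were higher in the colon than in the ileum in both treatments (Car1 at 9.46 ± 0.27 on the log2 scale without antibiotic), Muc2 being the exception, and all 6 ileum markers were lower (Sis at -8.78 ± 0.26). The deposited values are log2 expression values from RMA, and every difference below is a difference of group means on that scale with its standard error from limma. Array medians ran from 7.98 to 8.14. Replicate 11 of the vancomycin ileum stood apart: averaged over the arrays of its group, its correlation was 0.977, where replicates 13 and 14 had 0.987 and 0.983. Its mean of 8 smooth muscle markers was 15.11, against 14.16 and 13.67 in replicates 13 and 14 and 13.62 to 13.73 in the no-antibiotic ilea, and its mean of 7 B cell markers was 10.22, against 7.83 and 7.51 in replicates 13 and 14 and 7.54 to 8.19 in the no-antibiotic ilea. Its mean of 8 epithelial markers was lower, at 15.42, against 15.91 and 15.97 in replicates 13 and 14 and 15.84 to 15.87 in the no-antibiotic ilea. It was the lowest of the 6 ilea for 19 of the 29 members, where 25.1% of all named probe sets had their lowest value in it. Values without it are given below for each member of the vancomycin comparisons and tissue gaps that it moved by 0.25 or more on the log2 scale, and for the counts that changed; other values include it. The part of its muscle, B cell and epithelial content in those results was not tested. In whole tissue, fewer cells of a type and less RNA per cell cannot be told apart.

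**Figure D1:**
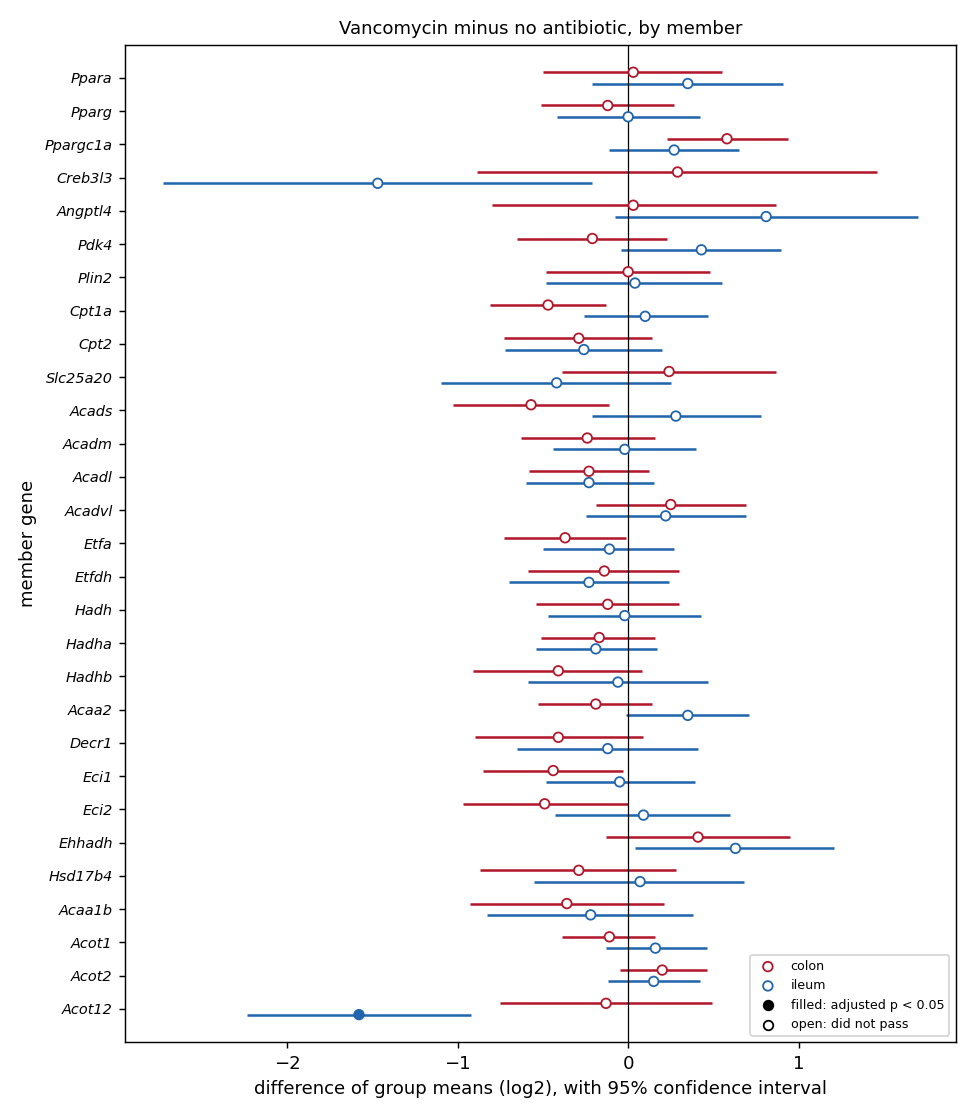
Differences of group means (log2, x axis), vancomycin minus no antibiotic, for the 29 measured members in colon (red) and ileum (blue), with 95% confidence intervals; filled points passed an adjusted p of 0.05. Acot12 in the ileum at -1.58 is the 1 filled point, and the widest interval is that of ileal Creb3l3, from -2.73 to -0.21.

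Vancomycin was set against no antibiotic in each tissue to ask what the drug did to this programme. In the colon 0 of 29 members passed the threshold (limma, Benjamini-Hochberg adjusted p under 0.05 over 19572 probe sets), where 0.0102% of all probe sets passed, and the smallest adjusted p was 0.157, for Ppargc1a. At an unadjusted p under 0.05 there were 6 of 29 members (20.7%), against 15.9% of all probe sets. In the ileum 1 member passed, Acot12, which was lower, where 0.536% of all probe sets passed and 0.485% passed as lower. At the unadjusted threshold the ileum had 3 of 29 (10.3%), against 10.1% of all probe sets, and without replicate 11 it had 4 (13.8%, against 10.7%). The median difference of the members was -0.17 in the colon, against 0.02 over all probe sets, and 0 in the ileum, against 0.02. The plot of vancomycin effects shows how wide the intervals are: over the members they span -1.03 to 1.46 in the colon and -2.73 to 1.70 in the ileum. The bounds of 1.46 and -2.73 are those of Creb3l3, and the members' median standard error was 0.21 in the colon and 0.22 in the ileum. With 3 or 4 arrays a group, a difference within a gene's own interval may be missed.

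Ppargc1a, the coactivator that PPARs recruit to mitochondrial genes, stood at 16, 16.09 and 16.38 in the vancomycin colons, against 15.53, 15.96, 15.31 and 15.50 in the no-antibiotic colons. All 3 vancomycin colons were above all 4 others, the 1 member of 29 above without overlap (3.45%, against 6.72% of all probe sets). The difference of 0.58 ± 0.16 had an adjusted p of 0.157 in limma, and values at or over 16, which a 16-bit scanner cannot give on the log2 scale before processing and which 1.31% of named probe sets pass on some array, may not be exact intensities. In the ileum Ppargc1a was at 14.85, 14.77 and 14.95 with vancomycin, against 14.62, 14.75 and 14.38 without antibiotic, again without overlap, for a difference of 0.27 ± 0.18 (limma adjusted p = 0.623).

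Creb3l3, which encodes CREB-H, a membrane-bound transcription factor of liver and small intestine that works with PPAR alpha on lipid genes, had the widest spread. It stood at 8.47, 10.96 and 11.71 in the vancomycin ilea, against 11.32, 12.13 and 12.10 in the no-antibiotic ilea. The low value was that of replicate 11, and the groups overlapped. The difference was -1.47 ± 0.59 (limma adjusted p = 0.415) with all arrays and -0.52 ± 0.32 (limma adjusted p = 0.626) without replicate 11. In the colon Creb3l3 was low in every array, at 7.68, 7.98 and 8.15 with vancomycin, against 7.68, 7.87, 8.01 and 7.04 without antibiotic. Ppara, the receptor itself, was at 10.07, 10.34 and 10.45 in the vancomycin ilea, against 9.83, 9.99 and 9.99 in the no-antibiotic ilea, with no overlap and a difference of 0.35 ± 0.26 (limma adjusted p = 0.677). Pparg differed by 0.00 ± 0.19 in the ileum and by -0.12 ± 0.18 in the colon, with 95% intervals of -0.42 to 0.42 and -0.51 to 0.27.

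Angptl4, the microbe-regulated gene of the set, stood at 8.31, 10.31 and 9.96 in the vancomycin ilea, against 8.58, 8.45 and 9.12 in the no-antibiotic ilea. Replicates 13 and 14 were above every no-antibiotic ileum and replicate 11 was below them all. With all arrays the difference was 0.81 ± 0.42 (limma adjusted p = 0.533). Without replicate 11 Angptl4 was higher by 1.42 ± 0.29 (limma adjusted p = 0.0326) and was the 1 member of 29 that passed, where 0.879% of all probe sets passed. Without replicate 13 its difference was 0.42. In the colon the gene was at 7.38, 7.25 and 7.57 with vancomycin, against 7.62, 7.44, 7.76 and 6.65 without antibiotic. These groups overlapped, and the difference of 0.03 ± 0.39 (limma adjusted p = 0.976) had a 95% interval of -0.80 to 0.87 and changed sign under several alternatives.

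In the ileum both other measured targets outside the oxidation chain had smaller differences than Angptl4, an order that was not tested. Pdk4, the kinase that shuts off pyruvate dehydrogenase when fat is burned, was at 6.06, 5.86 and 6.13 in the vancomycin ilea, against 5.44, 5.64 and 5.68 in the no-antibiotic ilea. All 3 were above the others, but the difference of 0.43 ± 0.22 did not pass (limma adjusted p = 0.531), and in the colon it was -0.21 ± 0.21. The signal was dim, and Pdk4 was the 1 member among the dimmest 33.3% of named probe sets. Plin2, a coat protein of lipid droplets, differed by 0.04 ± 0.24 in the ileum and by 0.00 ± 0.22 in the colon.

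**Figure D2:**
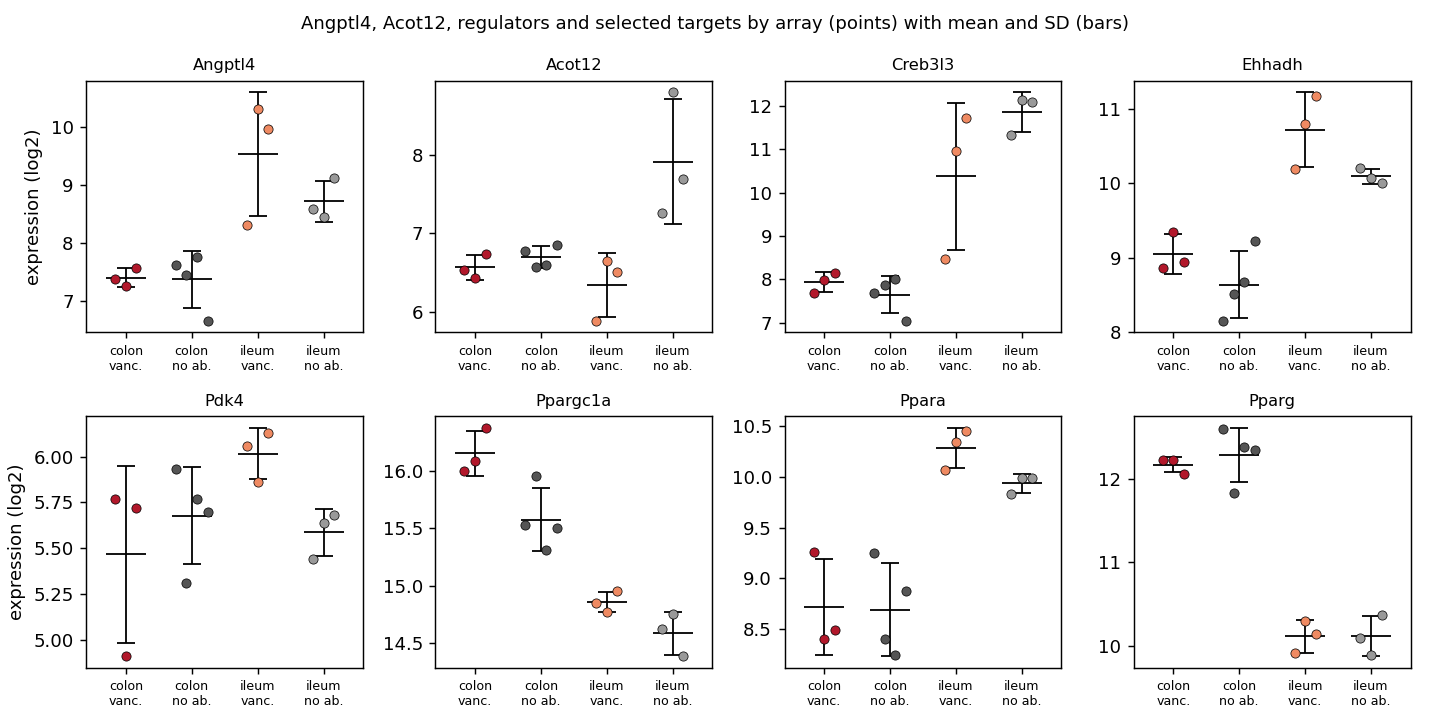
Expression (log2, y axis, a separate scale per gene) of 8 members on each array (points), with group mean and SD (bars), in vancomycin colon, no-antibiotic colon, vancomycin ileum and no-antibiotic ileum. Ileal Acot12 is lower with vancomycin (5.88 to 6.64, against 7.26 to 8.80), and 1 vancomycin ileum, replicate 11, sits low for Angptl4 (8.31) and Creb3l3 (8.47).

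Acot12, a cytosolic thioesterase that releases acetate from acetyl-CoA, was the 1 member that fell. It stood at 5.88, 6.64 and 6.50 in the vancomycin ilea, against 7.26, 8.80 and 7.69 in the no-antibiotic ilea. All vancomycin ilea were below all no-antibiotic ilea, and the means were 6.34 ± 0.40 and 7.92 ± 0.79 (SD, n = 3 each). The difference was -1.58 ± 0.31 (limma adjusted p = 0.0397). In the colon the values were 6.53, 6.43 and 6.74 with vancomycin, against 6.78, 6.57, 6.59 and 6.85 without antibiotic, a difference of -0.13 ± 0.29 (limma adjusted p = 0.862). The ileal call was lost in 12 of the 13 fits that left out 1 array each, among them the fit without replicate 11 (-1.35, limma adjusted p = 0.075), and in a fit of the ileum alone (limma adjusted p = 0.305). The direction held in all of these. The related thioesterases Acot1, of the cytosol, and Acot2, of mitochondria, differed by 0.16 ± 0.14 and 0.15 ± 0.13 in the ileum and by -0.11 ± 0.13 and 0.20 ± 0.12 in the colon; they are close paralogs, and shared signal between their probe sets was not tested.

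The mitochondrial members leaned low in the colon under vancomycin without passing the test. Of 16 mitochondrial members, from the carnitine shuttle to the auxiliary enzymes for unsaturated chains, 14 had a lower mean in the vancomycin colon, with a median of -0.27. Outside the members, 15 other mitochondrial acyl-CoA enzymes had a colon median of -0.07, with differences from -0.50 to 0.54. For 10 genes of fatty acid activation and mitochondrial uptake the colon median was 0.02. The lean is thus stated for the 16 members alone. An unadjusted p under 0.05 was reached by 5 of the 16, but 0 passed in limma. Over all probe sets 46.9% had a lower mean and 15.9% an unadjusted p under 0.05. The mean level of the 16 was 11.68 to 11.93 in the vancomycin colons, against 11.90 to 12.19 in the no-antibiotic colons. The mean of the 8 epithelial markers was lower, at 15.05 to 15.17 in the vancomycin colons, against 15.20 to 15.29 in the no-antibiotic colons, with 0 of 8 markers past the threshold. The markers did not move as 1: their median difference was -0.08, and they ran from -0.53 ± 0.16 for Krt18 to 0.49 ± 0.23 for Vil1. The part of epithelial content in the mitochondrial values was not tested. In the ileum 11 of the 16 had a lower mean with all arrays, where 45.9% of all probe sets did, with a median of -0.05. Without replicate 11, 10 of the 16 had a higher one, where 53.4% of all probe sets did.

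Entry into mitochondria is controlled by Cpt1a, which makes acylcarnitines at the outer membrane. It stood at 11.80, 11.46 and 11.76 in the vancomycin colons, against 12.22, 11.86, 12.07 and 12.41 in the no-antibiotic colons. All 3 were below the others, with a difference of -0.47 ± 0.16 (limma adjusted p = 0.197). In the ileum the difference was 0.10 ± 0.17. Slc25a20, the carrier that moves acylcarnitines across the inner membrane, was at 11.08, 11.85 and 12.42 in the vancomycin ilea, against 12.28, 12.10 and 12.24 in the no-antibiotic ilea. The vancomycin values spread on both sides of the no-antibiotic ones, with a difference of -0.42 ± 0.32 that was -0.07 ± 0.28 without replicate 11. Cpt2, which turns acylcarnitines back into acyl-CoA inside, differed by -0.29 ± 0.20 in the colon and by -0.26 ± 0.21 in the ileum.

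Acyl-CoA dehydrogenases take the first step, each for a range of chain lengths. Acads, the short-chain enzyme, was at 8.88, 9.05 and 8.72 in the vancomycin colons, against 9.50, 9.22, 9.55 and 9.53 in the no-antibiotic colons. The groups did not overlap, and the difference was -0.57 ± 0.21 (limma adjusted p = 0.231). In the ileum Acads stood at 8.87, 9.46 and 9.99 with vancomycin, against 9.29, 8.93 and 9.25 without antibiotic, a difference of 0.28 ± 0.23 that was 0.57 ± 0.19 without replicate 11 (limma adjusted p = 0.275). The medium-chain enzyme Acadm differed by -0.24 ± 0.18 in the colon and -0.02 ± 0.20 in the ileum, the long-chain enzyme Acadl by -0.23 ± 0.16 and -0.23 ± 0.17, and the very-long-chain enzyme Acadvl by 0.25 ± 0.20 and 0.22 ± 0.22. Their electrons pass through the electron transfer flavoprotein. Its alpha subunit Etfa was at 14.29, 14.07 and 13.74 in the vancomycin colons, against 14.72, 14.52, 14.11 and 14.26 in the no-antibiotic colons. These values overlapped and differed by -0.37 ± 0.17 (limma adjusted p = 0.305). Etfdh, which hands the electrons on to ubiquinone, differed by -0.14 ± 0.21 in the colon and -0.23 ± 0.22 in the ileum.

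The later steps ran in the same range. Hadhb, the thiolase subunit of the trifunctional protein, was at 13.18, 12.76 and 13.04 in the vancomycin colons, against 13.93, 13.37, 12.96 and 13.37 in the no-antibiotic colons, an overlap with a difference of -0.41 ± 0.23 (limma adjusted p = 0.397). Its partner Hadha differed by -0.17 ± 0.15 in the colon and -0.19 ± 0.17 in the ileum, and Hadh, the dehydrogenase for shorter chains, by -0.12 ± 0.20 and -0.02 ± 0.21. Acaa2 is the thiolase that closes the cycle. It stood at 14.64, 14.65 and 14.68 in the vancomycin ilea, against 14.18, 14.44 and 14.30 in the no-antibiotic ilea, without overlap, for a difference of 0.35 ± 0.17 (limma adjusted p = 0.509). In the colon it was at -0.19 ± 0.16.

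Unsaturated chains need isomerases and a reductase. Eci1, an enoyl-CoA isomerase, was at 12.24, 11.38 and 11.33 in the vancomycin colons, against 12.18, 12.13, 11.94 and 12.11 in the no-antibiotic colons. The first of these, replicate 11 of the vancomycin colon, was the highest of all 7, and the difference was -0.44 ± 0.19 (limma adjusted p = 0.28). Without that array Eci1 was lower, at -0.74 ± 0.14 (limma adjusted p = 0.0435). Eci2, a second isomerase found in mitochondria and peroxisomes, was at 11.47, 11.17 and 10.86 in the vancomycin colons, against 12.03, 11.61, 11.18 and 11.79 in the no-antibiotic colons, and the groups overlapped. Decr1, the dienoyl-CoA reductase, was at 9.20, 8.66 and 8.64 in the vancomycin colons, against 9.60, 9.19, 9.03 and 9.14 in the no-antibiotic colons, again with overlap. Neither passed, with differences of -0.49 ± 0.22 (limma adjusted p = 0.311) for Eci2 and -0.41 ± 0.23 (limma adjusted p = 0.401) for Decr1. Ileal differences of the 3 genes lay between -0.12 and 0.09.

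**Figure D3:**
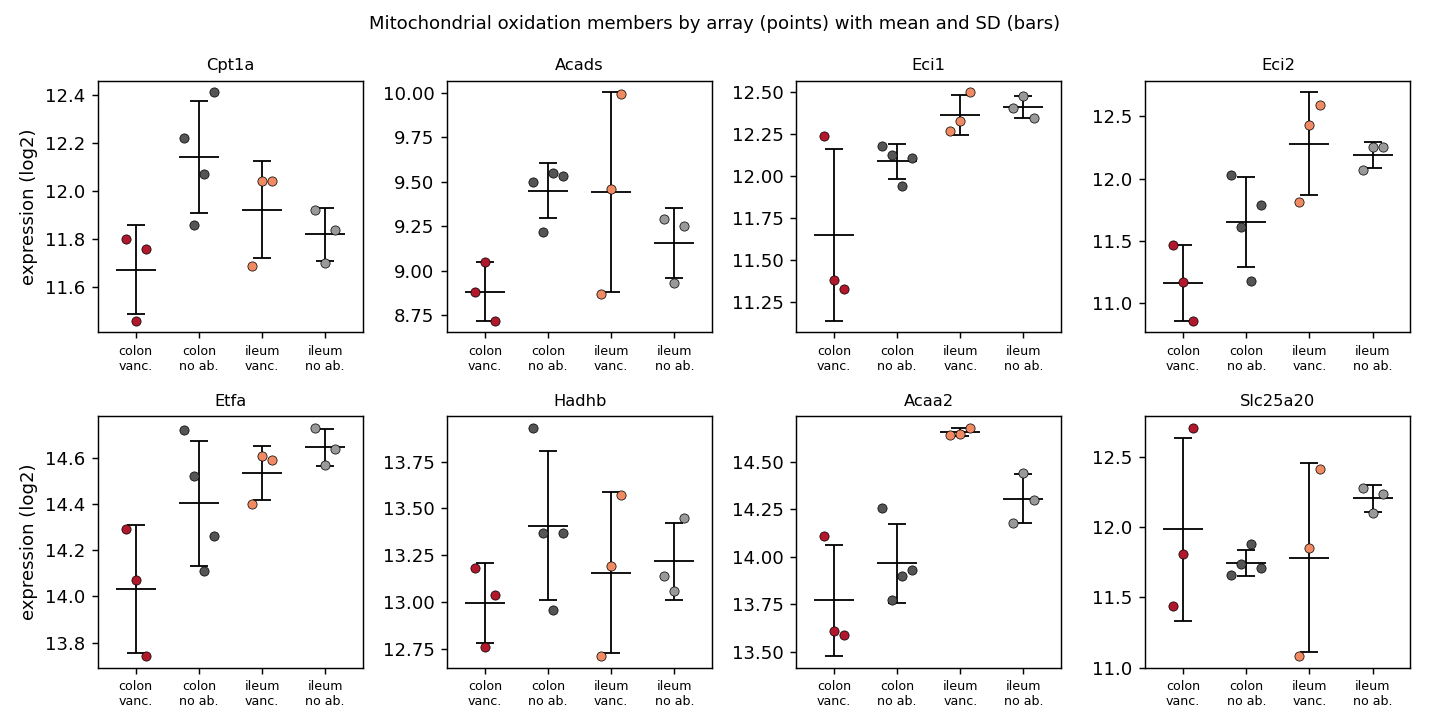
Expression (log2, y axis, a separate scale per gene) of 8 mitochondrial members on each array (points), with group mean and SD (bars), in the same 4 groups. For Cpt1a and Acads the 3 vancomycin colons lie below the 4 no-antibiotic colons, and for Acaa2 the 3 vancomycin ilea (14.64 to 14.68) lie above the no-antibiotic ilea (14.18 to 14.44).

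Peroxisomal members differed among themselves. Ehhadh, the bifunctional enzyme that is a textbook PPAR alpha target, was at 10.19, 10.80 and 11.18 in the vancomycin ilea, against 10.21, 10.07 and 10.01 in the no-antibiotic ilea. Replicates 13 and 14 were above the others and replicate 11 was within them, with a difference of 0.63 ± 0.27 (limma adjusted p = 0.456) that was 0.89 ± 0.26 without replicate 11 (limma adjusted p = 0.177). With array weights it passed at 0.72 (limma adjusted p = 0.0397), but these gave replicate 13 a weight of 3.79, against 0.30 for replicate 11 and 0.64 for replicate 14, so that 1 array made up 80.1% of the weighted group. In the colon Ehhadh stood at 8.86, 9.35 and 8.94 with vancomycin, against 8.15, 8.51, 8.67 and 9.23 without antibiotic, a difference of 0.41 ± 0.25 (limma adjusted p = 0.444). Hsd17b4, the other bifunctional enzyme, differed by -0.29 ± 0.27 in the colon, where its groups did not overlap, and by 0.07 ± 0.29 in the ileum, or 0.40 ± 0.25 without replicate 11. Acaa1b, a peroxisomal thiolase, differed by -0.36 ± 0.26 in the colon and by -0.22 ± 0.28 in the ileum. The ileal value was 0.13 ± 0.24 without replicate 11. Its signal may be shared with the paralog Acaa1a, which was not tested.

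Across all members, those whose ileal groups did not overlap were Ppara, Ppargc1a, Pdk4, Acaa2 and Acot2 above (17.2%, against 8.57% of all probe sets) and Acot12 below (3.45%, against 8.34%). In the colon they were Ppargc1a above and Cpt1a, Acads and Hsd17b4 below (10.3%, against 5.57% of all probe sets). Replicate 11 was the lowest of the 6 ilea for 19 of the 29 members, so leaving it out raises the vancomycin means of those members by construction. The members' median, 0 with all arrays, was -0.11 without vancomycin ileum 14 and 0.13 without replicate 11. Without replicate 11, 21 of 29 members had a higher mean in the vancomycin ilea, against 53.4% of all probe sets. Angptl4, Cpt1a, Acads, Acadvl, Eci2 and Ehhadh then joined those above without overlap, 11 members in all (37.9%, against 16.7% of all probe sets), and Acot12 remained the 1 below (3.45%, against 15.3%). The 11 differences ran from 0.11 to 1.42. Angptl4 was the 1 of them that passed, and values for the members not yet given without replicate 11 were 0.46 ± 0.29 for Ppara, 0.28 ± 0.20 for Ppargc1a, 0.41 ± 0.25 for Pdk4, 0.36 ± 0.19 for Acaa2, 0.22 ± 0.18 for Cpt1a, 0.26 ± 0.25 for Acadvl, 0.32 ± 0.23 for Eci2 and 0.11 ± 0.14 for Acot2.

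Whether vancomycin acted differently in the colon and the ileum was tested as the colon effect minus the ileum effect. Of 29 members 0 passed in limma, where 0.189% of all probe sets passed, and 5 (17.2%) had an unadjusted p under 0.05, where 8.01% of all probe sets did. Those 5 were Acot12 (1.45 ± 0.42, limma adjusted p = 0.319), Creb3l3 (1.76 ± 0.80, 0.612), Acads (-0.85 ± 0.31, 0.488), Cpt1a (-0.57 ± 0.23, 0.538) and Acaa2 (-0.54 ± 0.23, 0.569). For Angptl4 the difference of effects was -0.78 ± 0.57, with a 95% interval from -2 to 0.45, and for Pdk4 it was -0.64 ± 0.30. Without ileal replicate 11 again 0 members passed, where 0.429% of all probe sets did, and 6 (20.7%, against 9.45%) had an unadjusted p under 0.05. Angptl4 and Eci2 were then among them and Creb3l3 was not. That fit moved Angptl4 to -1.39 ± 0.38 (limma adjusted p = 0.178), where leaving out replicate 13 instead gave -0.39. Creb3l3 came to 0.80 ± 0.41 (limma adjusted p = 0.586) and Acads to -1.13 ± 0.25 (limma adjusted p = 0.0853, the smallest of the members). Slc25a20 was at 0.66 with all arrays and 0.31 without replicate 11, Ehhadh at -0.22 and -0.48, Hsd17b4 at -0.36 and -0.69, and Acaa1b at -0.14 and -0.49. The ileal call of Acot12 was thus not shown to be particular to the ileum.

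The tissues themselves differed far more. Without antibiotic 13 of 29 members passed between colon and ileum, 11 lower in the colon and 2 higher, where 20.5% of all probe sets passed, 9.59% as lower and 11% as higher. Under vancomycin 15 passed, 13 lower in the colon and 2 higher, where 15.1% of all probe sets passed, 7.67% as lower and 7.45% as higher. The members' median was -0.46 without antibiotic and -0.56 under vancomycin, against 0.04 over all probe sets in both. Under vancomycin every colon was below every ileum for 17 of 29 members (58.6%, against 12.1% of all probe sets) and above for 2 (against 15.3%), and without antibiotic this held for 15 (51.7%, against 14.1%) and 3 (against 18.1%). The group means of these comparisons share no arrays, but 1 fit of all 13 arrays gave the spread for both, so their calls are not independent. They had 12 called members in common, all with the same direction. That is 92.3% of those called without antibiotic and 80% of those called under vancomycin, and the matching shares over all probe sets were not taken. Acot12 passed without antibiotic alone, and Acaa2, Eci1 and Eci2 under vancomycin alone, and the test of the difference given above, which equals the tissue gap under vancomycin minus the gap without antibiotic, passed for none of these 4. Without ileal replicate 11 the vancomycin comparison kept all 15 calls, where 20.2% of all probe sets passed, and gained Acads (-0.84 ± 0.19, limma adjusted p = 0.00628) and Hadh (-0.77 ± 0.22, limma adjusted p = 0.0262).

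**Figure D4:**
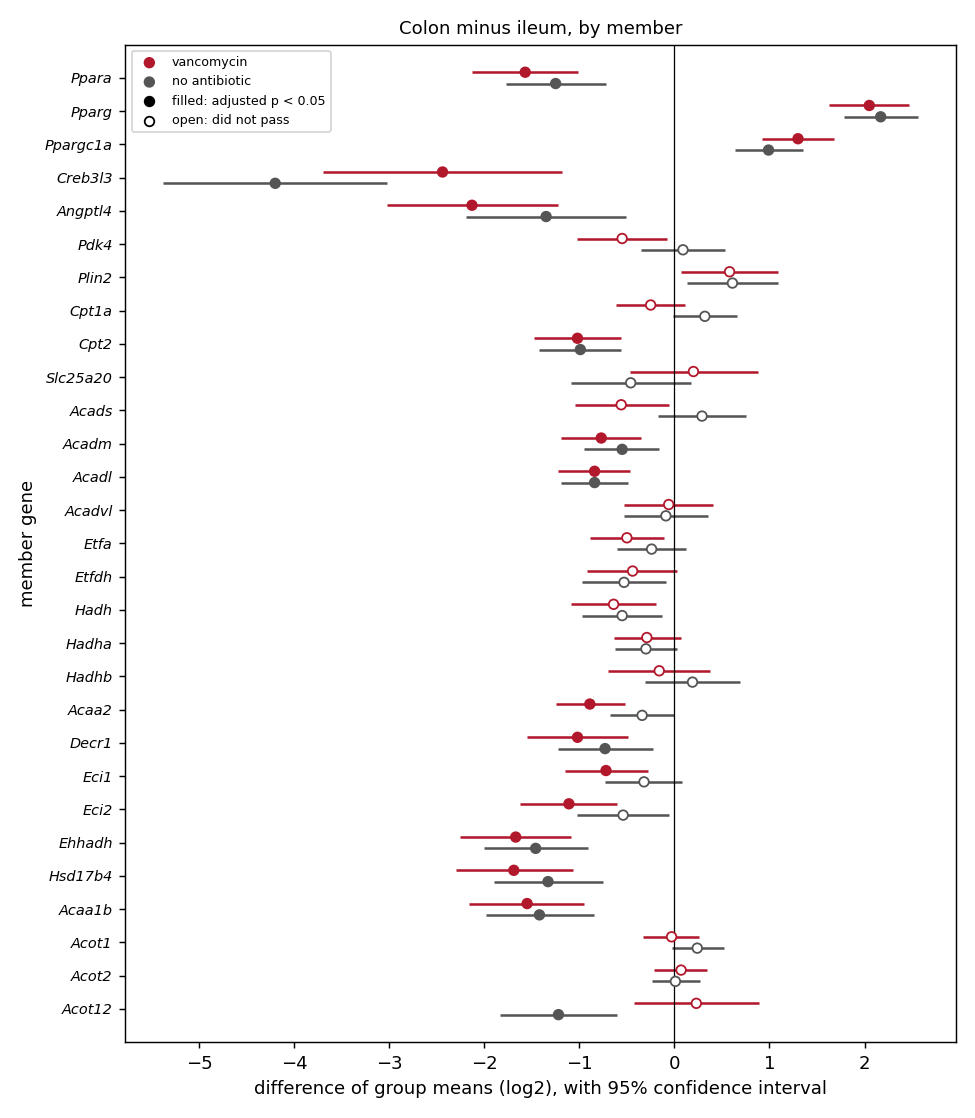
Differences of group means (log2, x axis), colon minus ileum, for the 29 measured members under vancomycin (red) and without antibiotic (grey), with 95% confidence intervals; filled points passed an adjusted p of 0.05. Pparg and Ppargc1a lie to the right, at 2.05 and 1.30 under vancomycin, and Creb3l3 lies farthest to the left, at -4.20 without antibiotic.

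The regulators split by tissue. Pparg, the receptor of fat cells and of colonic epithelium, was at 12.22, 12.22 and 12.06 in the vancomycin colons, against 9.91, 10.30 and 10.14 in the vancomycin ilea, and at 12.59, 11.83, 12.38 and 12.34 in the no-antibiotic colons, against 10.09, 9.89 and 10.37 in the no-antibiotic ilea. Every colon was above every ileum, and the differences were 2.05 ± 0.19 under vancomycin (limma adjusted p = 4.23e-06) and 2.17 ± 0.18 without antibiotic (limma adjusted p = 8.59e-07). Ppargc1a was higher in the colon by 1.30 ± 0.18 under vancomycin and 0.99 ± 0.16 without antibiotic, with the reserve on values near the scanner limit. Ppara went the other way. It stood at 9.26, 8.40 and 8.49 in the vancomycin colons and 9.25, 8.40, 8.24 and 8.87 in the no-antibiotic colons, all below the lowest ileum at 9.83, and was lower in the colon, at -1.57 ± 0.26 under vancomycin and -1.25 ± 0.25 without antibiotic (limma adjusted p = 8e-04 and 0.00207).

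Creb3l3 had the largest tissue difference of the members, -4.20 ± 0.55 without antibiotic (limma adjusted p = 6.87e-05) and -2.44 ± 0.59 under vancomycin (limma adjusted p = 0.0104). No colon reached the lowest ileum, replicate 11 with vancomycin at 8.47. Under vancomycin the call was lost without ileal replicate 13 (-2.15, limma adjusted p = 0.0532) and in a fit of the vancomycin arrays alone (limma adjusted p = 0.0817). The gap was -3.40 ± 0.32 without ileal replicate 11 (limma adjusted p = 2.43e-06). The promoter table has 2 windows for the gene. The 250 bases before the outer one, chr10:81098873-81099122 on the minus strand of GRCm38.p6, hold 0 half-sites and are shown as the upstream sequence of the member that differs most.
Creb3l3 upstream: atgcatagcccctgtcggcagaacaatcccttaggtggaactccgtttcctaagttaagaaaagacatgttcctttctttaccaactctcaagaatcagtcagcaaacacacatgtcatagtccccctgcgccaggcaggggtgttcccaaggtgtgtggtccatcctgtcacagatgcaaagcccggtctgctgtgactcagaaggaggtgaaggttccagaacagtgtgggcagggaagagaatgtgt

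Angptl4 was lower in the colon in both treatments, at -2.13 ± 0.42 on the log2 scale under vancomycin (limma adjusted p = 0.00266) and at -1.35 ± 0.39 without antibiotic (limma adjusted p = 0.0235). Without ileal replicate 11 the gap under vancomycin was -2.73 ± 0.29. Every colon, the highest at 7.76, was below every ileum, the lowest at 8.31. The call without antibiotic was lost without no-antibiotic colon 5 (-1.11, limma adjusted p = 0.071), no-antibiotic ileum 1 (-1.42, 0.0542) or no-antibiotic ileum 3 (-1.15, 0.116). Neither Pdk4 (-0.55 ± 0.22 under vancomycin and 0.09 ± 0.21 without antibiotic) nor Plin2 (0.58 ± 0.24 and 0.61 ± 0.22) passed.

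All 3 peroxisomal members were lower in the colon, in both treatments and with any array left out. Ehhadh differed by -1.67 ± 0.27 under vancomycin (limma adjusted p = 0.000613) and -1.46 ± 0.25 without antibiotic (limma adjusted p = 0.000809). Hsd17b4 was at 9.89, 9.86 and 9.46 in the vancomycin colons, against 10.76, 11.28 and 12.23 in the vancomycin ilea, and at 10.04, 9.93, 10 and 10.15 in the no-antibiotic colons, against 11.02, 11.45 and 11.60 in the no-antibiotic ilea. The colons stayed within a narrow band below every ileum, with differences of -1.69 ± 0.29 and -1.33 ± 0.27. Acaa1b stood at 10.28, 9.87 and 9.94 in the vancomycin colons, against 10.88, 11.88 and 11.99 in the vancomycin ilea, and at 10.95, 10.45, 9.97 and 10.19 in the no-antibiotic colons, against 11.71, 11.91 and 11.80 in the no-antibiotic ilea. Within each treatment its colons were below its ilea, by -1.55 ± 0.28 and -1.42 ± 0.26. Without ileal replicate 11 the gaps under vancomycin were -1.94 ± 0.26 for Ehhadh, -2.02 ± 0.25 for Hsd17b4 and -1.90 ± 0.24 for Acaa1b, and that of the carnitine carrier Slc25a20 was -0.15 ± 0.28, against 0.20 with all arrays.

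Mitochondrial members were less uniform, with 7 of 16 lower in the colon under vancomycin and 4 of 16 without antibiotic past the threshold, where 7.67% and 9.59% of all probe sets passed as lower, and 0 higher. Leaving out ileal replicate 11 gave 9 under vancomycin, where 10.1% of all probe sets passed as lower. In the pairs of values that follow, the vancomycin comparison comes before the no-antibiotic one. Cpt2 (-1.02 ± 0.21 and -0.99 ± 0.20) and Acadl (-0.84 ± 0.17 and -0.84 ± 0.16) passed in both with any array left out. Acadm (-0.77 ± 0.20 and -0.55 ± 0.18) and Decr1 (-1.02 ± 0.25 and -0.73 ± 0.23) passed in both with all arrays. Of the 13 fits with 1 array left out, Acadm lost the no-antibiotic call in 11 and the vancomycin call in 2, and Decr1 lost them in 6 and 1. The limma adjusted p without antibiotic reached 0.241 for Acadm, without no-antibiotic ileum 3, and 0.109 for Decr1, without no-antibiotic ileum 1. Acaa2 (-0.89 ± 0.17), Eci1 (-0.72 ± 0.20) and Eci2 (-1.11 ± 0.24) passed under vancomycin, and Eci1 lost the call without any 1 of vancomycin colons 13 and 14 and vancomycin ilea 13 and 14, with limma adjusted p up to 0.122. At the other end, Acadvl (-0.06 ± 0.22 and -0.09 ± 0.20) and Hadhb (-0.16 ± 0.25 and 0.19 ± 0.23) had intervals on both sides of 0, as did Cpt1a, at -0.25 ± 0.17 under vancomycin and 0.32 ± 0.16 without antibiotic. Acot12 was lower in the colon without antibiotic, at -1.22 ± 0.29 (limma adjusted p = 0.00707), and at 0.23 ± 0.31 under vancomycin.

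**Figure D5:**
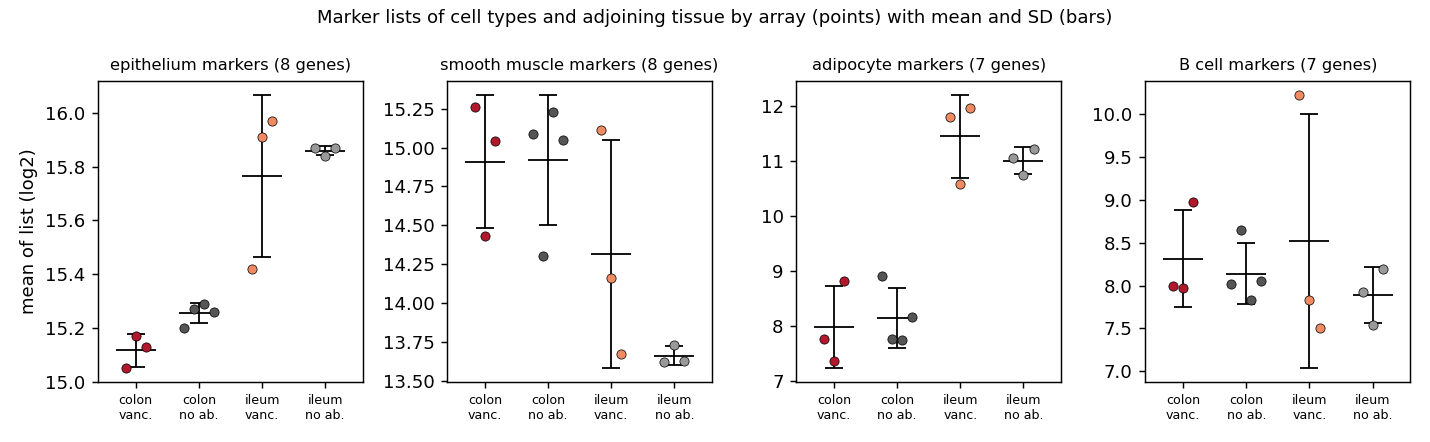
Mean level (log2, y axis, a separate scale per list) of 4 lists of marker genes on each array (points), with group mean and SD (bars), in the same 4 groups. Adipocyte markers lie between 7.37 and 8.90 in the colons and between 10.57 and 11.95 in the ilea, and the vancomycin ileum at 15.42 for epithelium, 15.11 for smooth muscle and 10.22 for B cells is replicate 11.

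Markers of other tissue differed between colon and ileum beside these genes. All 7 measured adipocyte markers were lower in the colon in both treatments (Adipoq at -5.63 ± 0.73 under vancomycin and -3.86 ± 0.68 without antibiotic, Lipe at -3.45 ± 0.25 and -3.47 ± 0.23). Their mean was 7.37 to 8.82 in the vancomycin colons, against 10.57 to 11.95 in the vancomycin ilea, and 7.74 to 8.90 in the no-antibiotic colons, against 10.74 to 11.22 in the no-antibiotic ilea. Smooth muscle markers ran the other way in their means, by 0.10 to 0.98 under vancomycin and by 0.72 to 1.65 without antibiotic. Of these 8 markers 1 passed as higher in the colon under vancomycin, or 5 without ileal replicate 11, and 7 without antibiotic. Over all probe sets 7.45% passed as higher and 7.67% as lower under vancomycin, so the 1 of 8 is near that share. The shares were 10.1% each way without ileal replicate 11, and 11% and 9.59% without antibiotic. Of the 8 epithelial markers 2 were lower in the colon under vancomycin, or 4 without ileal replicate 11, and 3 without antibiotic, with Vil1, an enterocyte brush border protein, at -1.92 ± 0.25 and -2.82 ± 0.23. Pparg, which fat cells also express, was higher in the colon, and all 7 adipocyte markers were lower there. The part of fat, muscle or epithelial content in the tissue differences of the members, Pparg among them, was not tested.

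Other genes of the pathway were read from 7 lists that hold none of the 29 members. With vancomycin 0 of their 99 measured genes passed in limma, in the colon, in the ileum or in the difference between them, and 17, 15 and 11 had an unadjusted p under 0.05 in these comparisons (17.2%, 15.2% and 11.1%, against 15.9%, 10.1% and 8.01% of all probe sets). Acox2, a peroxisomal oxidase for branched chains and bile acid intermediates, had values of 0.64 ± 0.15 in the colon (limma adjusted p = 0.119) and 0.60 ± 0.16 in the ileum (limma adjusted p = 0.167). Sirt3, a mitochondrial deacetylase, stood at 0.93 ± 0.21 in the colon (limma adjusted p = 0.102). Bdh2, a short-chain dehydrogenase, stood at 0.85 ± 0.23 in the ileum (limma adjusted p = 0.173). The other genes with the smallest p of their list in the colon were the peroxisomal fatty acid importer Abcd3 (0.59 ± 0.19), the acyl-CoA synthetase Acsl6 (0.40 ± 0.18), Acaca, the acetyl-CoA carboxylase of fatty acid synthesis (0.47 ± 0.24), Acad8 (0.38 ± 0.12), Ech1 (-0.50 ± 0.19), Acss1 (-0.79 ± 0.37), Oxct1 (0.17 ± 0.13), Retsat (-0.61 ± 0.20), the enterocyte fatty acid binding protein Fabp2 (-1.11 ± 0.43), Hilpda (-0.69 ± 0.20), Gpihbp1 (0.50 ± 0.19) and the PPAR partner Rxrb (-0.49 ± 0.17). In the ileum they were Acsl4 (0.72 ± 0.23), Acaca (0.76 ± 0.26), Acad12 (0.33 ± 0.17), Mcat (-0.29 ± 0.18), Abcd2 (0.62 ± 0.33), Acss1 (-0.31 ± 0.40), the fatty acid transporter Slc27a1 (0.95 ± 0.29), Acot5 (0.84 ± 0.26), G0s2 (0.45 ± 0.15), lipoprotein lipase Lpl (0.46 ± 0.22), Lpin1 (0.69 ± 0.21) and Ppargc1b (-0.64 ± 0.22). These did not pass, and their values include ileal replicate 11. Without it 2 of the 99 passed in the ileum, where 0.879% of all probe sets did, Acox2 at 0.76 and Acot5, a peroxisomal thioesterase, at 1.17 (limma adjusted p = 0.0414 and 0.0169), and 0 passed in the difference between tissues. At the unadjusted threshold there were then 17 in the ileum (17.2%, against 10.7% of all probe sets) and 12 in the difference (12.1%, against 9.45%).

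Between the tissues the counts of these lists are read against 7.67% of all probe sets called as lower in the colon and 7.45% as higher under vancomycin, and against 9.59% and 11% without antibiotic. The following genes were picked after their values were seen, from those called in their list and not strictly in order of p. Each pair of values gives vancomycin before no antibiotic. Of 16 other peroxisomal enzymes and transporters 7 were lower and 1 higher in the colon under vancomycin, and 10 lower and 1 higher without antibiotic, with medians of -0.83 and -0.70. Without ileal replicate 11 the vancomycin count was 10 lower and 1 higher. Among them Acaa1a, the other peroxisomal thiolase, was at -1.96 ± 0.24 and -1.52 ± 0.23, and Crot, which makes carnitine esters for export from peroxisomes, at -1.20 ± 0.20 and -1.35 ± 0.19. Of 15 other mitochondrial acyl-CoA enzymes 0 were lower in either treatment, and 1 and 2 were higher, with medians of 0.22 and 0.11, and the shares called as higher are near those of all probe sets. The 1 gene called in both was Acad8, of valine breakdown, at 0.67 ± 0.13 and 0.45 ± 0.12. Of 10 genes of fatty acid activation and mitochondrial uptake 4 were lower and 0 higher under vancomycin, and 5 lower and 1 higher without antibiotic. The vancomycin count was 4 lower and 1 higher without ileal replicate 11, where 10.1% of all probe sets passed each way. Acsl5, an acyl-CoA synthetase of enterocytes, stood at -2.29 ± 0.26 and -3.13 ± 0.24, and Slc22a5, the carnitine transporter, at -1.31 ± 0.22 and -1.75 ± 0.21.

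Of 29 further PPAR target genes 15 were lower and 2 higher in the colon under vancomycin, and 13 lower and 3 higher without antibiotic, with medians of -1.23 and -0.56. Under vancomycin 16 were lower and 2 higher without ileal replicate 11, with a median of -0.67. Gpd1 had the smallest p of this list in both treatments (-5.11 ± 0.25 and -4.54 ± 0.24). Genes called as lower also included the glycerol channel Aqp7 (-5.93 ± 0.47 and -6.28 ± 0.44), the enterocyte ectoenzyme Vnn1 (-4.62 ± 0.47 and -5.78 ± 0.44), the fatty acid transporter Slc27a4 (-4.34 ± 0.44 and -5.30 ± 0.41) and the fatty acid binding protein Fabp1 (-3.36 ± 0.65 and -3.12 ± 0.61). Fabp4, Plin1 and Cidec in this list are also in the list of adipocyte markers, and the part of fat content in the differences of the whole list was not tested. On the other side stood Pck1 (1.46 ± 0.24 and 1.51 ± 0.22), an enzyme of gluconeogenesis. Among 5 ketone body genes Slc16a1, the monocarboxylate transporter that carries butyrate and ketone bodies, was higher in the colon, by 1.31 ± 0.13 and 1.5 ± 0.12, and the other 4 did not pass. With 5 genes, 1 call is close to the 15.1% and 20.5% called over all probe sets. Of 10 lipolysis genes 3 were lower and 0 higher under vancomycin and 2 lower and 1 higher without antibiotic, led by the lipase Lipe, itself an adipocyte marker. Leaving out ileal replicate 11 made the lipolysis count under vancomycin 2 lower and 1 higher. Of 14 PPAR partners and coregulators 2 were lower and 2 higher in each treatment. Ppargc1b, the sister gene of Ppargc1a, was higher in the colon, at 2.24 ± 0.22 under vancomycin and 1.48 ± 0.20 without antibiotic, as Ppargc1a was, and Nr1h3, the sterol receptor LXR alpha, was lower, at -2.41 ± 0.29 and -2.43 ± 0.27.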

How the data were processed

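Per the labels' protocols, biotin-labelled RNA from colon and ileum was hybridised to Affymetrix arrays, 13 in all and 1 colour each. Values were deposited on the log2 scale; per the submitters' processing notes, RMA and Affymetrix Expression Console (version 1.4.1.46) were used, in roles not stated. RMA corrects background, quantile-normalizes arrays and summarizes probes, so a shift common to most genes would be removed. Values ran from 3.01 to 18.25. The number of arrays limits the precision. No source used here names the genome build of the arrays, so no probe coordinates are printed.

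Of 28846 probe sets 19572 had 1 gene symbol and 0 had several. All 19572 matched a RefSeq table (GRCm38.p6) by Entrez identifier, and 0 symbols changed. Group means of all 13 arrays were fitted by lmFit and eBayes of limma 3.58.1 in R 4.3.3, with Benjamini-Hochberg adjustment over the 19572 and a threshold of 0.05. The steps were tested on simulated data. Alternatives were a fit of each tissue or treatment alone, array weights, leaving out the dimmest 33.3% of probe sets, quantile normalization again, centring, eBayes with trend and robust, the replicate number as a block, and leaving out each array. The labels do not say that a number marks 1 mouse. Same-numbered colon and ileum arrays correlated, in their deviations from group means, at 0.107 to 0.236 with vancomycin, where 3 of 3 correlated best with their own number, and at -0.016 to 0.075 without antibiotic, where 1 of 3 did. The vancomycin numbers may thus pair arrays, and the block is given as an alternative.

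The members, gene lists and tests were chosen with earlier results of these data known. Arrays are shown in full for Angptl4, for members called with vancomycin, for the 8 smallest p per vancomycin contrast and for the 5 largest tissue differences each way, with others added for context. Of each list the 2 genes with the smallest p per vancomycin contrast were to be named. Of 155 list entries 140 were measured. Promoter windows came from RefSeq.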

Additional observations from a re-analysis of the deposited data

Results flagged for a closer look

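In the no-antibiotic colon, the 1 group of 4 arrays, 3 of 29 members had 1 array far from the other 3 by Dixon's ratio (gap over range), where 1.45 are due by chance. Acads was at 9.22 in replicate 2, against 9.50 to 9.55 in the others (ratio 0.85). Acadm was at 11.04 in replicate 3, against 11.35 to 11.40 (ratio 0.86). Hadha was at 14.53 in replicate 3, against 14.11 to 14.18 (ratio 0.83).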

How the results depend on the processing

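Counts of members past the threshold kept within 1.5 times of their values under all alternatives in the tissue comparisons, with 10 to 13 without antibiotic and 12 to 17 under vancomycin when 1 array was left out, and in the difference between tissues (0 to 0). For vancomycin they were 0 to 1 in the colon and 0 to 1 in the ileum with 1 array left out; in the ileum they were 0 in a fit of that tissue alone and 3 (2 higher) with array weights. Counts over all probe sets moved more. In the colon, 2 with all arrays, there were 0 in a fit of that tissue alone, 38 with array weights, 1 without the dimmest 33.3% of probe sets, which removes Pdk4 from the members, 0 after centring, and 0 to 217 with 1 array left out, the highest without no-antibiotic replicate 3. In the ileum, 105 with all arrays, there were 20 in that tissue alone, 1012 (478 higher) with array weights and 40 to 172 with 1 array left out, the highest without vancomycin replicate 11. The difference between tissues, 37 with all arrays, gave 191 with array weights and 12 to 84 with 1 array left out. Colon minus ileum under vancomycin, 2961 with all arrays, gave 1875 in a fit of that treatment alone, 4903 with array weights and 2192 to 3948 with 1 array left out, and without antibiotic it gave 2910 to 3847 with 1 array left out. The colonic Angptl4 value of 0.03 changed sign, to -0.01 with array weights, -0.02 after quantile normalization again, -0.21 without no-antibiotic replicate 5 and -0.05 without vancomycin replicate 14; with 1 array left out it ran from -0.21 to 0.16. Ileal Angptl4 passed with array weights (1.43, limma adjusted p = 0.00834), a fit in which replicate 13 holds 80.1% of the weight of its group. The causes of these shifts were not tested, and some of these fits also had fewer arrays or probe sets.

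With the replicate number as a block over all arrays (consensus correlation 0.097) the ileal count was 104, the difference between tissues gave 43, the colonic count was 2, and the counts of members called in the colon, the ileum and the difference were 0, 1 and 0. The tissue comparisons gave 16 members under vancomycin, with Hadh gained (-0.64, limma adjusted p = 0.0431), and 13 without antibiotic; the block changed no other call of a member. A block within the vancomycin arrays alone, chosen after seeing the data (consensus correlation 0.149), gave 2281 probe sets and 12 members, against 1875 and 11 without the block, and Creb3l3 at a limma adjusted p of 0.0515.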
